A study of Homo sapiens with 4 samples.

Results

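m6A-seq was carried out on poly(A) RNA of MDA-MB-231, a human cell line derived from a triple negative breast cancer, and the peaks on 10 genes of the Hippo pathway were examined. In this assay fragmented mRNA is pulled down by an antibody that binds N6-methyladenosine (m6A), and stretches enriched over input RNA are listed as peaks. Per the labels the 4 libraries were 2 of input RNA and 2 of immunoprecipitated (IP) RNA, and all 4 came from this 1 line and carry shNS in their titles. The labels name YTHDC1 as the treatment of the IP libraries, while the titles describe m6A-seq and the protocol an m6A antibody. The 10 genes were fixed by name: the kinases LATS1 and LATS2, the coactivators YAP1 and WWTR1 (TAZ), the DNA-binding partners TEAD1, TEAD3 and TEAD4, and AMOTL2, AJUBA and CCN1. Their 24 peaks were taken from a list of 20261 peaks on 10140 gene IDs.

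The Hippo pathway is a kinase cascade that restrains growth. The upstream kinases encoded by STK3 and STK4, with the adaptors SAV1 and MOB1, activate LATS1 and LATS2, which phosphorylate YAP1 and TAZ and so keep them out of the nucleus. When the cascade is low, YAP1 and TAZ enter the nucleus, bind TEAD factors and switch on growth and matrix genes. In breast cancer cells, nuclear YAP1 and TAZ are known for roles in invasion and metastasis.

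All 10 genes carried at least 1 peak. Among RefSeq protein-coding genes of the nuclear genome, 40.8% had a peak, with 29.3% for plus-strand and 55.6% for minus-strand genes. The genes were proposed with earlier results of this list known, so that their presence in it is a description only. The libraries had been combined before peaks were listed, each peak has 1 score and no read count, and the spread between replicates and the depth behind a peak are unknown. The score is taken to be a p-value for IP over input, and the file does not tell whether it is an FDR. It depends on how strongly a gene is expressed as well as on how far it is methylated, and neither was measured separately here.

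Peaks of this list were fewer and weaker on plus-strand genes, and each gene was therefore set against gene IDs of its own strand. The strongest score per gene had a median of 1e-06 over 3516 plus-strand gene IDs and of 4e-22 over 6624 minus-strand gene IDs. The plus-strand genes YAP1, TEAD1, TEAD4 and CCN1 together had 5 peaks with 1079 spliced bases. The minus-strand genes LATS1, LATS2, WWTR1, TEAD3, AMOTL2 and AJUBA had 19 peaks with 9972 spliced bases. The median score of the whole list (5.2e-08) was reached by 4 of the 5 plus-strand peaks, where 32.6% of all peaks of that strand reached it. It was reached by 14 of the 19 minus-strand peaks, against 56.7% of all peaks there. None of the 24 peaks shared a base with a peak listed on the opposite strand, an overlap seen in 17.8% of all peaks for the plus and 7.07% for the minus strand.

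**Figure D1:**
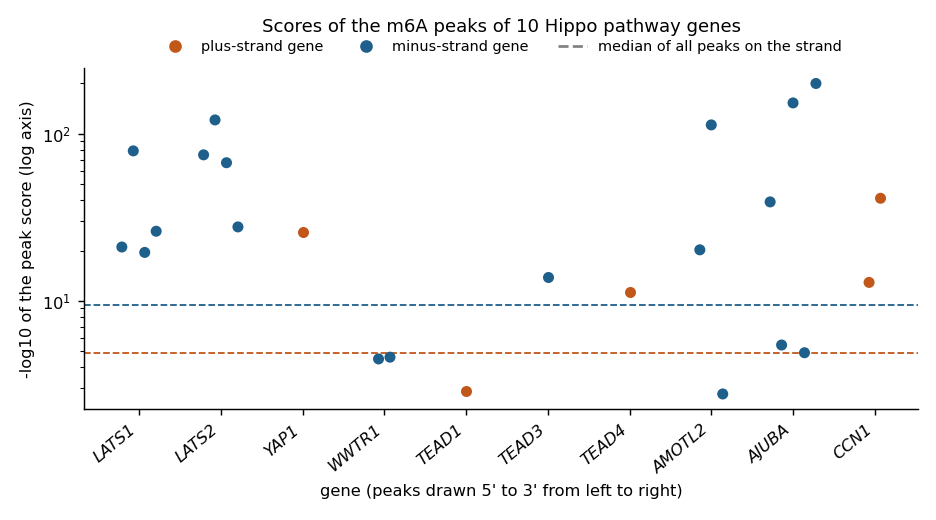
Each point is 1 m6A peak, with −log10 of its score on a log axis, grouped by gene and drawn from the 5′ to the 3′ end within a gene; dashed lines are the medians of all peaks of each strand. AJUBA, LATS2 and AMOTL2 hold the peaks above 100, whereas TEAD1 and both WWTR1 peaks lie below the median of their strand. Peaks 2 and 4 of AJUBA and peak 3 of AMOTL2 also lie below it.

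LATS1 and LATS2 encode the paralogous kinases that phosphorylate YAP1 and TAZ, and both mRNAs were covered by peaks over long stretches. LATS1 (ENSG00000131023.13, chromosome 6, minus strand) had 4 peaks with 2694 bases, and LATS2 (ENSG00000150457.9, chromosome 13, minus strand) had 4 peaks with 2960 bases. Only 2.22% of minus-strand gene IDs had as many bases in peaks as LATS1, and 1.66% as many as LATS2. At least 4 peaks were listed for 15.2% of minus-strand gene IDs. Bases in peaks and numbers of peaks were not adjusted for transcript length, here or below.

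From the 5′ end, the peaks of LATS1 had scores of 1e-21, 1e-79, 3.2e-20 and 7.9e-27. The strongest was a single block of 1376 bases (149683077 to 149684452), 33649 bases into the gene. The next peak downstream began 149 bases further on with a block of 9 bases and continued after an intron with a block of 530 bases. All 4 LATS1 peaks were stronger than the median peak of the minus strand (3.2e-10).

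From the 5′ end, the peaks of LATS2 had scores of 1.6e-75, 1e-121, 7.9e-68 and 2e-28. Its strongest peak ran over 3 blocks of 1127, 583 and 112 bases (20981537 to 20989007), the longest peak of the 10 genes with 1822 bases. The last 2 LATS2 peaks, of 330 and 419 bases, were separated by 118 bases. The strongest score of LATS2 was reached by 18.2% of minus-strand gene IDs (95% Wilson interval 17.3 to 19.2%) and that of LATS1 by 25.6% (24.5 to 26.6%).

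Set side by side, both kinase genes showed an early peak, a long strongest peak and peaks near the 3′ end. The early peak lay 15869 bases from the 5′ end in LATS1 and 15443 bases in LATS2, with lengths of 390 and 389 bases. Its score was far smaller in LATS2 (1.6e-75) than in LATS1 (1e-21). These distances include introns, and as a share of the span the midpoint lay at 26.8% in LATS1 and 17.7% in LATS2. A length of 389 bases was also listed for the final LATS1 peak, so that equal lengths do not mark a shared site. The final peak stopped 3648 bases short of the 3′ end in LATS1 and 1373 bases short of it in LATS2. Whether these stretches match each other in sequence was not analysed here.

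**Figure D2:**
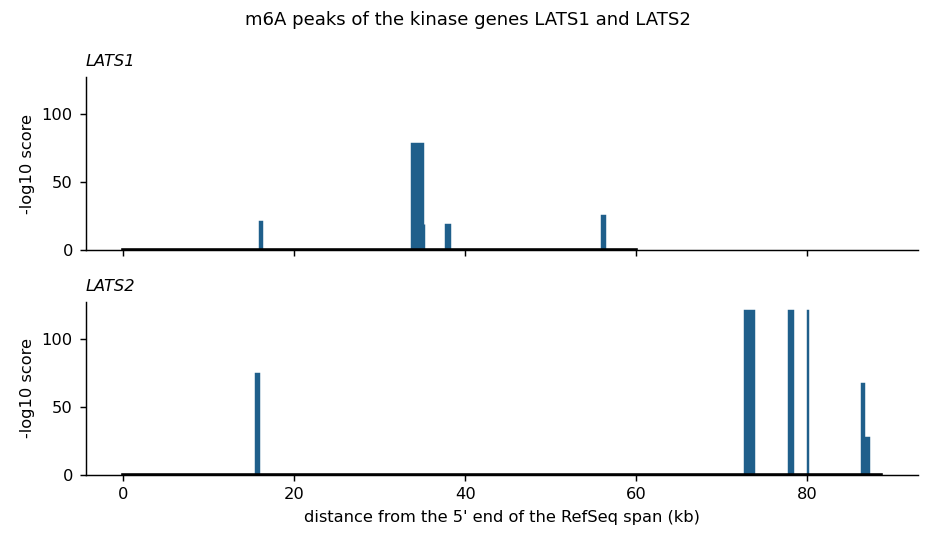
Bars mark the blocks of each m6A peak of LATS1 (top) and LATS2 (bottom) by distance from the 5′ end of the RefSeq span in kb, with the height giving −log10 of the score of the peak to which the block belongs; the black line is the span of the gene. Both genes have a peak close to 15 kb from the start (introns included), a long strongest peak further downstream and weaker peaks towards the 3′ end.

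YAP1 and WWTR1 encode the coactivators on which the cascade acts, and their peaks lay at opposite ends of the genes. YAP1 (ENSG00000137693.14, chromosome 11, plus strand) had a single peak of 180 bases with a score of 1e-26, which began with the first base of the RefSeq span (102110447 to 102110626). WWTR1 (ENSG00000018408.14, chromosome 3, minus strand) had none there. Its 2 peaks, of 121 bases (149520827 to 149520947, score 3.2e-05) and 91 bases (149518762 to 149518852, score 2.5e-05), ended 3592 and 1527 bases before the 3′ end. No peak of YAP1 was listed in the remaining 122798 bases of its span. Having 1 peak alone was the usual state on its strand, seen for 63.4% of plus-strand gene IDs. On the strand of WWTR1 the share was 41.9%.

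Within their own strands the pair ranked far apart. A score at or under that of YAP1 was found for 15.0% of plus-strand gene IDs (95% Wilson interval 13.8 to 16.2%), whereas 82.4% of minus-strand gene IDs (81.5 to 83.3%) reached that of WWTR1. The rank of YAP1 depends on the strand comparison, since 35.3% of gene IDs of both strands reached its score. WWTR1 was on the weaker side in that comparison too (75.6%).

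The start of YAP1 is shown because its only peak begins there. In the RefSeq sequence of GRCh38.p14 (chr11:102110387-102110476, plus strand) the capitals mark the first 30 transcribed bases, all inside the peak, and the lower case marks the 60 bases before the start.
YAP1: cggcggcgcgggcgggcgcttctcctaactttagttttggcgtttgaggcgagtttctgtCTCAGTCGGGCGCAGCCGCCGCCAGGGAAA
The letters GGAC, a core of the context in which m6A is deposited, were not found in the first 50 transcribed bases of YAP1 on either strand. They were found on the transcribed strand in 19.8% of 22199 such windows of protein-coding genes. The rest of the peak was not searched.

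TEAD1, TEAD3 and TEAD4 encode transcription factors that recruit YAP1 and TAZ to DNA, and each mRNA had a single peak at a different place. A single peak is common in this list, at 63.4% of plus-strand and 41.9% of minus-strand gene IDs. TEAD3 (ENSG00000007866.21, chromosome 6, minus strand) had a peak of 300 bases with a score of 1.3e-14 that started exactly at the 5′ end of the gene. It consisted of 182 bases at the start (35496898 to 35497079) and of 118 bases in a block that began 10368 bases further into the gene. TEAD4 (ENSG00000197905.9, chromosome 12, plus strand) had a peak of 240 bases with a score of 5e-12 that ended exactly at the 3′ end of the gene (3040437 to 3040676). The TEAD1 peak (ENSG00000187079.18, chromosome 11, plus strand) was 151 bases long (12937275 to 12937425) and ended 7312 bases before the 3′ end. Its score was 0.0013, and 87.2% of plus-strand peaks had a score as small or smaller.

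The order of the TEAD genes changed with the strand comparison. On the plus strand, 29.2% of gene IDs reached the score of TEAD4 and 90.4% that of TEAD1, so that the peak of TEAD1 was among the weaker ones. On the minus strand, 57.8% reached the score of TEAD3, although its score was smaller than that of TEAD4. Over both strands the share was 50.4% for TEAD4 and 46.2% for TEAD3.

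The start of TEAD3 (chr6:35497050-35497139, minus strand, GRCh38.p14) is shown for the same reason as that of YAP1, with the first 30 transcribed bases in capitals.
TEAD3: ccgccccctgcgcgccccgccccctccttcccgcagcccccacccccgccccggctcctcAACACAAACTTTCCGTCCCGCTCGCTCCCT
GGAC was not found on the transcribed strand in the first 50 bases of TEAD3, and it was found 1 time on the reverse strand. Reverse-strand matches were present in 18.8% of all such windows.

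AMOTL2, AJUBA and CCN1 stand at the ends of the cascade. AMOTL2 encodes an angiomotin-like scaffold of cell junctions that binds YAP1, AJUBA a LIM domain protein that binds and restrains LATS kinases, and CCN1 a secreted matrix protein and a classical target gene of YAP1 and TEAD. Their strongest scores were 1e-113 for AMOTL2, 1e-200 for AJUBA and 7.9e-42 for CCN1. Within their own strands these were reached by 19.5%, 10.8% and 10.5% of gene IDs.

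AJUBA (ENSG00000129474.16, chromosome 14, minus strand) had the strongest peak and the most peaks of the 10 genes. From the 5′ end, its 5 peaks had scores of 7.9e-40, 3.6e-06, 1e-153, 1.3e-05 and 1e-200. The strongest, of 330 bases (22973148 to 22973477), ended 1971 bases before the 3′ end. The first began exactly at the 5′ end of the gene and was 240 bases long. At least 5 peaks were listed for 7.55% of minus-strand gene IDs, and 10.8% (95% Wilson interval 10.1 to 11.6%) reached the strongest score of AJUBA.

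Sequence was available for parts of 2 AJUBA peaks. The first stretch covers bases 21 to 50 of the transcript (chr14:22982502-22982531, minus strand, GRCh38.p14) inside the first peak and was chosen to show the GGAC letters. The second is the whole of the fourth peak (chr14:22976830-22976920, minus strand), a weak peak of 91 bases that contains a RefSeq start site within the gene. The capitals mark GGAC.
AJUBA start: gaacagatagacctgcGGACtGGACagccg
AJUBA peak 4: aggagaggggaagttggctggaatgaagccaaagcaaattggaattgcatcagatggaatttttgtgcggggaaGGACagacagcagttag
In the first 50 transcribed bases of AJUBA, GGAC was found 2 times, in 1 case followed by T, and both matches lie in the stretch shown; the first 30 bases, the part shown for YAP1 and TEAD3, held none. Of the first 50 bases of protein-coding genes, 19.8% held GGAC and 4.87% held GGACT, which includes GGAC, on the transcribed strand, and 18.8% and 5.14% on the reverse strand. GGAC was found 1 time in the fourth peak. As background, stretches of 91 bases were taken at the same distance from the starts of protein-coding genes. Only 13 bases of each lie after the start, so that they are mostly not mRNA sequence of that start. They held GGAC in 29.2% on the strand of the gene and 30.3% on the reverse strand, and GGACT in 8.32% and 8.4%.

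AMOTL2 (ENSG00000114019.14, chromosome 3, minus strand) had 3 peaks with 2217 bases, which 4.36% of minus-strand gene IDs equalled or exceeded. Its strongest peak (134356353 to 134358624, score 1e-113) had blocks of 85 and 1411 bases and ended 1008 bases before the 3′ end. A score as small as that was reached by 19.5% of minus-strand gene IDs. A weak peak of 91 bases (score 0.0017) followed after 59 bases. The peak nearest to the 5′ end (134370944 to 134371760, score 6.3e-21) had blocks of 79 and 551 bases. The pseudogene RPL39P5, on the same strand, had a peak of 210 bases with a score of 1e-27, of which 187 bases were shared with the strongest AMOTL2 peak. The list alone does not say to which of these gene IDs the shared bases belong, and no other gene ID had a peak inside the span of any of the 10 genes.

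CCN1 (ENSG00000142871.17, chromosome 1, plus strand) is the shortest of the genes, with a span of 3190 bases, and had 2 peaks. The first, of 150 bases, began exactly at the 5′ end (85580761 to 85580910, score 1.3e-13). The stronger, of 358 bases (85582997 to 85583354, score 7.9e-42), ended 596 bases before the 3′ end. The strongest score of CCN1 was reached by 10.5% of plus-strand gene IDs (95% Wilson interval 9.52 to 11.6%), close to the position of AJUBA on the minus strand, and by 28.3% of gene IDs of both strands. On its strand, 36.6% of gene IDs had at least 2 peaks.

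**Figure D3:**
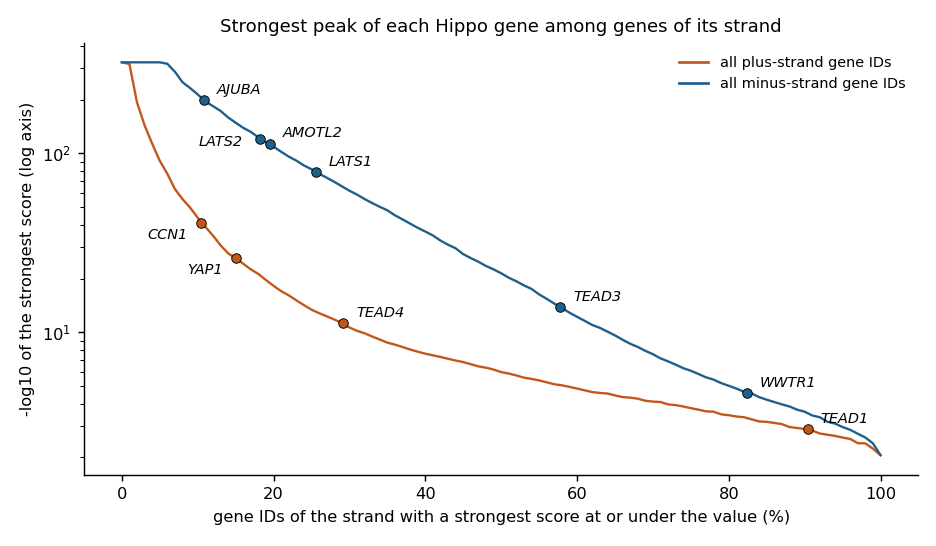
Curves give, for all gene IDs of each strand, −log10 of the strongest score of the gene (log axis) against the percent of gene IDs of that strand with a score as small or smaller; points are the 10 Hippo genes. Each within its own strand, CCN1 at 10.5% and AJUBA at 10.8% rank highest, WWTR1 at 82.4% and TEAD1 at 90.4% lowest. Against gene IDs of both strands CCN1 is at 28.3%, behind AJUBA (7.69%), LATS2 (13.2%), AMOTL2 (14.2%) and LATS1 (18.8%).

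Of the 4 genes encoded on the plus strand 3 had a smaller strongest score than the median gene ID, and of the 6 on the minus strand 4 had. TEAD1, TEAD3 and WWTR1 were the exceptions. The strand medians of spliced bases per gene were 240 (plus) and 513 (minus), and the 10 genes fell on both sides of them. YAP1 (180), TEAD1 (151), WWTR1 (212) and TEAD3 (300) were below, TEAD4 (240) was at the median, and CCN1 (508), AJUBA (1589), AMOTL2 (2217), LATS1 and LATS2 were above.

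Along the genes, the peaks were placed by their midpoint on the RefSeq span, introns included. Each span was divided into 10 equal parts. The last part contained 2 of 5 peaks on the plus strand, beside 36.4% of all protein-coding peaks, and 6 of 19 on the minus strand, beside 37.8%, shares close to the background. The first part contained 2 of 5 and 2 of 19, beside 13.2% and 12.1%. Of the 19 minus-strand peaks, 4 lay in the third part, where 4.11% of minus-strand peaks were found. They belonged to LATS1, TEAD3, AMOTL2 and AJUBA. For TEAD3 and AJUBA this place comes from the intron between blocks, since with the midpoint of the spliced blocks they lay at 0.639% and 10.5% of the span. Peaks with more than 1 block numbered 6 of 19 on the minus strand, beside 18.8% there, and 0 of 5 on the plus strand, beside 15.4%.

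A peak that began within 10 bases of the 5′ end of the span was listed for 4 of the 10 genes, and in YAP1, TEAD3, AJUBA and CCN1 it began at the very first base. This place was singled out after the peaks had been seen. On the plus strand 2 of 4 genes had such a peak, against 4.31% of protein-coding genes with peaks, and on the minus strand 2 of 6, against 7.73%. The antibody is also known to bind N6,2′-O-dimethyladenosine, a cap-adjacent base, and the list cannot tell these marks apart. At the RefSeq start the first base was A in TEAD3 and AJUBA and C in YAP1, and no start sequence was available for CCN1. Which mark these peaks hold was not tested. TEAD4 was the only one of the 10 genes with a peak that ended within 10 bases of the 3′ end, 1 of 4 on the plus strand, where 2.68% had one. On the minus strand there was none among 6 genes, and 5.07% had one.

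**Figure D4:**
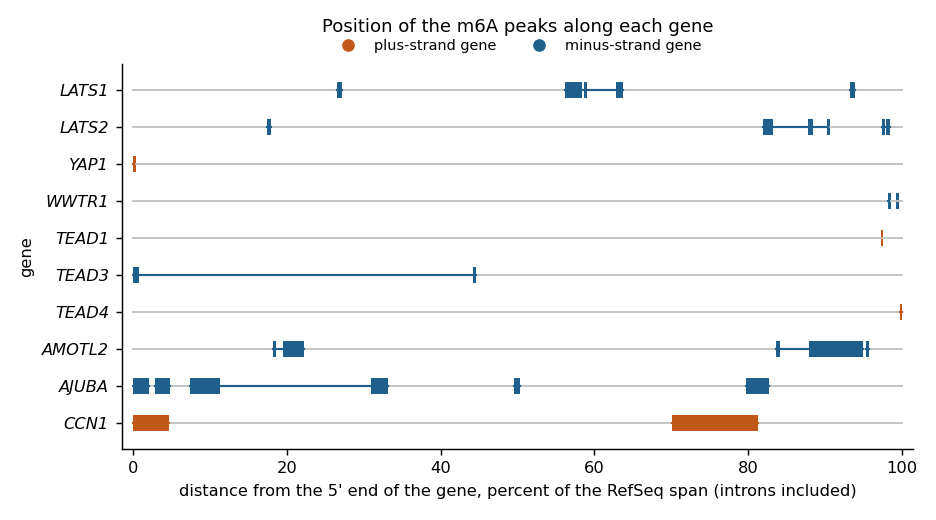
Boxes are the blocks of each m6A peak along the RefSeq span of the gene, in percent from the 5′ end with introns included, and thin coloured lines join the blocks of 1 peak; very short blocks are drawn at a minimum width. YAP1, TEAD3, AJUBA and CCN1 have a box at 0%, whereas the boxes of WWTR1, TEAD1 and TEAD4 lie in the last 10% of the span.

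To set these genes in the pathway, 51 other Hippo genes were examined by role, of which 37 had a peak, beside 40.8% of all protein-coding genes. By strand these were 17 of 24 plus-strand genes, beside 29.3% of protein-coding genes there, and 20 of 22 minus-strand genes, beside 55.6%. The list median score was reached by 23 of the 51, and by 26.6% of all protein-coding genes. By strand it was reached by 6 of 24 plus-strand genes, beside 12.2% of protein-coding genes there, and by 17 of 22 minus-strand genes, beside 43.8%. The strand of the other 5 (DLG5, STK3, BTRC, CRIM1 and DOCK5) is not known here. None of them had a peak, and leaving them out can only raise the shares by strand. Of the 37, 21 had a strongest score at or under the median gene ID of their strand.

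Among 12 upstream regulators 8 had a peak, beside 40.8% of all protein-coding genes. MAP4K4, a kinase that can activate LATS kinases, had a peak of 601 bases with a score of 1e-267, which 1.34% of plus-strand gene IDs reached. The minus-strand genes TAOK3 (5e-55, 5 peaks) and DCHS1, which encodes a cadherin (3.2e-14, 8 peaks), had the next smallest scores, reached by 32.5% and 58.3% of gene IDs of that strand. Within its own strand the plus-strand gene TAOK2 (1.1e-10, 2 peaks), at 31.9%, stood beside TAOK3. NF2, which encodes the tumour suppressor Merlin, had 1 weak peak (0.00025). WWC1, WWC2, WWC3 and DLG5 had no peak in the list.

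Of 5 genes of the core cascade above LATS 3 had a peak, beside 40.8% of all protein-coding genes. None of these was stronger than the median gene ID of its strand, which also held for the nuclear partners below. SAV1, the scaffold of the upstream kinases, had 4 peaks with a smallest score of 1.3e-21, which 50.6% of minus-strand gene IDs reached. MOB1A (5.6e-06) and STK4 (0.00036) had 1 peak each, and STK3 and MOB1B had none listed.

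Among 11 regulators of LATS or YAP1, 9 had a peak, beside 40.8% of all protein-coding genes. AMOT, which encodes the angiomotin scaffold, had 4 peaks. CSNK1D, which encodes a casein kinase 1 with a part in YAP1 degradation, had 6. In both genes the smallest score was listed as 0, too small to be stored. CSNK1E, the gene of a related kinase, had 5 peaks with a smallest score of 1e-156. AMOTL1, the third angiomotin gene, had 3 peaks with scores of 6.5e-08 or more, and LIMD1, a relative of AJUBA, had 4 peaks with scores of 6e-07 or more, of which 2 shared bases with opposite-strand peaks. STRN and BTRC had none listed.

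Of 4 nuclear partners 3 had a peak, beside 40.8% of all protein-coding genes. These were VGLL4 (2.5e-08), VGLL3 (3.6e-05) and TEAD2 (0.005), and VGLL1 had none. None of these was stronger than the median gene ID of the minus strand, and 99.5% of minus-strand gene IDs reached the score of TEAD2. With TEAD1 and TEAD3, 3 of the 4 TEAD genes were thus on the weaker side of their strand.

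Of 19 further target genes, taken from a published YAP/TAZ signature, 14 had a peak (40.8% of all protein-coding genes). In 12 it reached the list median score (26.6% of all protein-coding genes). These were 4 of 8 plus-strand targets, beside 12.2%, and 8 of 9 minus-strand targets, beside 43.8%. CRIM1 and DOCK5, without a peak and of unknown strand, are left out of the counts by strand, which can only raise these shares. CCN2, the close relative of CCN1, had 2 peaks, of which 1 shared bases with a peak on the opposite strand, ASAP1 had 2, and in both the smallest score was listed as 0. ANKRD1, a nuclear cofactor and classical YAP1 target, had 3 peaks with a smallest score of 1e-150. MYOF, AXL, CRIM1, DOCK5 and RBMS3 had no peak in the list. The list gives no expression values, and a gene without a peak is not shown to lack m6A.

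**Figure D5:**
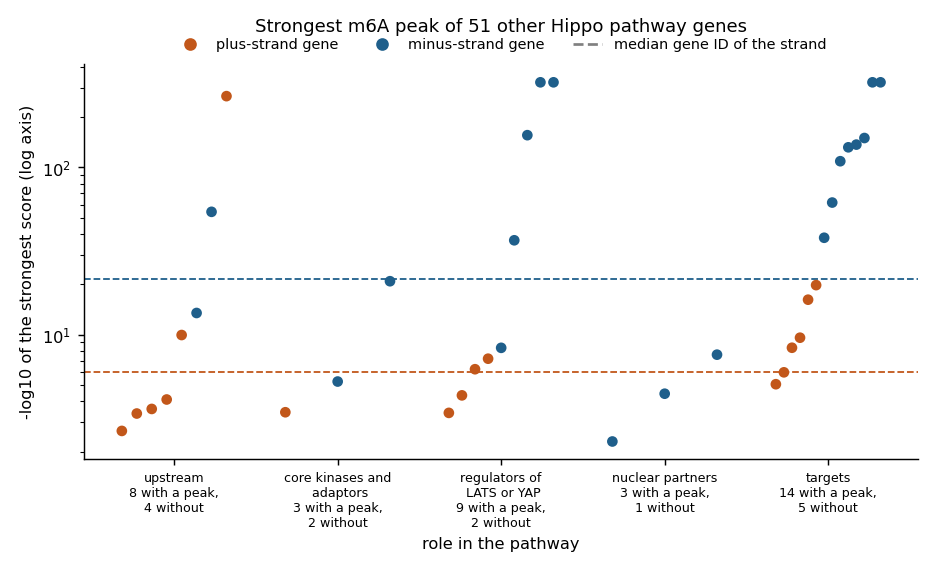
Each point is the strongest peak of 1 of the other Hippo genes, as −log10 of its score on a log axis, by role in the pathway and coloured by strand, with scores listed as 0 drawn at the top; dashed lines are the medians of all gene IDs of each strand, and genes without a peak are counted under the axis. The core kinases and nuclear partners lie below the dashed line of their strand, and 12 of the 14 targets lie above it.

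Expression of the markers of this cell line could not be checked in a list of peaks. VIM, which MDA-MB-231 cells express, had 1 peak with a score of 5e-27, of which 132 bases were shared with a peak of VIM-AS1 on the opposite strand. CD44, also known in this line, and the hormone receptor genes ESR1 and PGR, which the line lacks, had no peak.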

How the data were processed

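The authors aligned m6A-seq reads with STAR to a GENCODE v33 transcriptome (hg38 per the labels), ran exomePeak with default settings on IP against input and kept peaks passing a fold enrichment of 1 and an FDR of 0.05. The deposited list gives each peak as blocks with 1 score for all 4 libraries, which was taken to be a p-value; whether it is an FDR is not stated. No depth is given. No further columns of per-sample values exist.

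Ensembl IDs without version were matched to symbols (10103 of 10140; all 10 Hippo genes). Spans are those of RefSeq (GRCh38.p14), and coordinates count from 1. Strand for genes without a peak came from RefSeq start windows. So did the strand of all genes in the shares of RefSeq protein-coding genes with a peak. These windows covered 79.1% of 20037 protein-coding genes. Start windows (250 bases before to 50 after a start) were present for 7 of the Hippo genes. Exons, UTRs and coding sequence were not analysed here. Position was the midpoint in 10 equal parts of the span. Overlap required 1 shared base. Ranks are shares of gene IDs of the strand with a score as small or smaller. Their 95% Wilson intervals treat genes as independent and cover counting error only. No test was made, since genes are not replicates. Genes, lists and settings were chosen with earlier results of these data known. All 10 genes are named whatever their values, and of the other Hippo genes those without a peak and the strongest of each role, with NF2, TAOK2, AMOTL1 and LIMD1 chosen after their values were seen. Overlap, rank and position functions were tested on simulated data. Python 3.11.15 and pandas 2.3.3 were used.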

Additional observations from a re-analysis of the deposited data

How the results depend on the processing

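Under each alternative tried, the number of Hippo genes with a peak (10 as listed, 8 with scores at or under the list median or at or under 1e-10) and their number of peaks (24 as listed, 18 under both restrictions) stayed between these values. WWTR1 and TEAD1 had no peak under either restriction. Merging, the first part of the list alone (up to where its chromosomes start again) and leaving out opposite-strand overlaps left 24 peaks. These alternatives could not change the count. All 24 peaks lie in the first part, and none overlaps another peak of its gene or an opposite-strand peak. The number in the last of 10 equal parts of the span was 8 as listed and 9 with spliced midpoints, and 11 lay in the last of 5 equal parts. Of the other Hippo genes, 37 had a peak as listed, 23 with scores at or under the median and 18 at or under 1e-10; these restrictions remove peaks by construction. Against gene IDs of both strands, the rank share left its interval for all 10 genes, against protein-coding gene IDs for 6, and without peaks that overlap an opposite-strand peak for the 4 plus-strand genes (YAP1 10.9%, CCN1 7.04%, TEAD4 22.7% and TEAD1 89.0%). The 4 genes with a peak at the 5′ end were the same count at 0 and within 100 bases, alternatives chosen after the data were seen. No paired analysis was possible because peaks come from all 4 libraries combined, with no value for a replicate, and none could be left out for the same reason. The unknown depth limits what a missing peak can show.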
